A study of Mus musculus with 8 samples.

Results

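The 9 genes described here encode the subunits of 2 families of ionotropic glutamate receptor in the mouse hippocampus, the 4 AMPA receptor genes Gria1 to Gria4 and the 5 kainate receptor genes Grik1 to Grik5. They were taken by name, from a list drawn up with earlier results of these data known. All 9 were found in every library, among 17655 genes that the mutant and the control tables share, and all 9 passed both filters on low values. RNA-seq was available for 8 hippocampal libraries of C57BL/6 mice, 2 in each of 4 groups: mice in which CRISPR disrupted Pyk2 (KO), mice carrying the Y402F substitution in Pyk2, also made with CRISPR (Y402F), wild-type mice labelled as controls of the knockout (KO controls) and wild-type mice labelled as controls of the mutant (Y402F controls). Pyk2 is a tyrosine kinase encoded by Ptk2b, the tyrosine replaced in Y402F is the site where it phosphorylates itself, and the study set loss of the protein beside loss of that site in the context of contextual fear memory. Ages, the number of animals in a library, the founder lines and the part of Ptk2b removed are not given in the sources used here. A p-value here sets a difference between groups against the spread of libraries within groups, estimated over all groups fitted. Since the number of animals is not given, that spread may be technical.

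AMPA receptors are tetramers of GluA1 to GluA4, the products of Gria1 to Gria4, and carry most of the fast excitatory current between hippocampal neurons. GluA2, from Gria2, decides whether the channel passes calcium, because its transcript is edited by the adenosine deaminase ADAR2 (gene Adarb1), which turns a glutamine codon in the pore loop into one read as arginine. Kainate receptors pair GluK1 to GluK3 (Grik1 to Grik3), which can form channels alone, with GluK4 and GluK5 (Grik4 and Grik5), which bind agonist tightly but need a partner of the first kind; in the mouse they are best known from the mossy fiber synapses of CA3. The codon that sets the calcium gate, called the Q/R site, is given for all 9 genes because it is the point at which the families are alike in sequence and differ in editing. Each line gives the coding strand from 5′ to 3′ over 33 bases of GENCODE M21 on GRCm38, with the codon in capitals.
Gria1: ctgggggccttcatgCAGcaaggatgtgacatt
Gria2: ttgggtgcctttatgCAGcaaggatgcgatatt
Gria3: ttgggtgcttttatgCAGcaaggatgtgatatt
Gria4: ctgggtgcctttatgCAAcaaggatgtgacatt
Grik1: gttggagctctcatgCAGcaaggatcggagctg
Grik2: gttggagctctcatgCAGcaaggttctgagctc
Grik3: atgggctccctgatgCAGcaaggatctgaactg
Grik4: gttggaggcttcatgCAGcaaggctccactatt
Grik5: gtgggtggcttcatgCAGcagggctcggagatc

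In the genome all 9 genes carry a glutamine codon there, which is CAA in Gria4 and CAG in the others. Over these 33 bases any pair of AMPA genes shared 28 to 31 bases, Grik1 and Grik2 shared 30, the other kainate pairs shared 19 to 25, and an AMPA gene shared 21 to 24 with a kainate gene. The edited codon of Gria2 is codon 607, in exon 11 of 16, at chr3:80706911-80706913 on the minus strand. The codons of Grik1 and Grik2, which ADAR2 also edits in part, are codon 636 in exon 13 of 18 at chr16:87940542-87940544 and codon 621 in exon 13 of 17 at chr10:49244329-49244331, both on the minus strand. The levels reported here are sums over whole genes, so neither the edited share nor the flip and flop splice forms were measured.

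The genes lie apart from one another. On GRCm38, Gria1 spans chr11:57011387-57330244 on the plus strand, Gria2 chr3:80681450-80802835 on the minus strand, Gria3 chrX:41400854-41678601 on the plus strand and Gria4 chr9:4417896-4796234 on the minus strand. Grik1 spans chr16:87895900-88290265, Grik2 chr10:49094833-49788766, Grik4 chr9:42518135-42944493 and Grik5 chr7:25009849-25072346, all on the minus strand, and Grik3 spans chr4:125490700-125714173 on the plus strand. GENCODE M21 places 13 other genes inside these spans, all on the same strand as the receptor gene and none among the matched genes. Of these, Ftl2-ps, a ferritin pseudogene within Grik3, was listed at 40.7 and 46.6 FPKM in KO controls and 24.3 and 18.2 FPKM in Y402F controls, above Grik3 itself, and how reads within Grik3 were divided between the genes is not known.

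Ptk2b, the targeted gene, bears on the KO label and not on the Y402F label, since a substitution need not alter the level of the transcript. It stood at 56.1 and 68.7 scaled FPKM in KO and 353 and 396 in Y402F, against 309 and 308 in KO controls and 323 and 317 in Y402F controls, where scaled FPKM is the fragment count per transcript length and sequencing depth, divided by a factor that brings the libraries to a common median. The log2 difference between KO and its controls was -2.30, with an SE of 0.11 and a limma adjusted p of 2.45e-06. Expected counts in the mutant libraries summed to 5756180 at the least and 6017220 at the most, and no read number is given for the controls. The mutant and the control libraries were deposited in tables of different kinds, so genotype and processing cannot be told apart wherever a mutant is set against its controls; KO against Y402F and KO controls against Y402F controls each stay within 1 kind.

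Other properties of the libraries moved with the groups. By Xist and the Y-linked Ddx3y, the pattern was female in KO replicate 1, Y402F replicate 1 and the 2 KO controls, and male in KO replicate 2, Y402F replicate 2 and the 2 Y402F controls. Xist was at 25.5 in KO replicate 1 and 40.1 in Y402F replicate 1, against 3.95 and 3.24 scaled FPKM in KO controls, and KO control replicate 2 also had 0.687 of the Y-linked Eif2s3y and 0.270 of Kdm5d. The 5 general neuron markers summed to 2250 and 1974 scaled FPKM in KO and 2242 and 1918 in Y402F, against 1695 and 1761 in KO controls and 2013 and 1975 in Y402F controls. The labelled tissue was checked with markers of dentate granule cells, CA3 and CA1 pyramidal cells and interneurons, and none of these was at 0 in any library. Choroid plexus markers, mostly Ttr, summed to 670 scaled FPKM in Y402F replicate 2 and to 1035 and 1058 in Y402F controls, while the remaining 5 libraries had 6.31 to 16.2.

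Gria1 was the most abundant of the 9 transcripts in every library, and the order of the leading 4 was Gria1, Gria2, Grik5 and Gria3 in all 4 groups, with no overlap between neighbours. Gria1 averaged 216 ± 4.99 scaled FPKM in KO and 223 ± 25.6 in Y402F, against 146.9 ± 2.58 in KO controls and 174 ± 5.33 in Y402F controls (SD, n = 2 each). Grik5, the most abundant kainate subunit, averaged 64.5 ± 8.77 in KO and 61.0 ± 10.5 in Y402F, against 55.0 ± 2.66 in KO controls and 58.3 ± 0.157 in Y402F controls. Below Gria3 the order shifted with the group. In KO it ran Grik4, Gria4, Grik2, with the ranges of Gria4 and Grik2 overlapping; in Y402F it ran Grik4, Grik2, Gria4, with both neighbouring pairs overlapping. KO controls had Grik4, Gria4, Grik2 without overlap, and Y402F controls had Grik2, Grik4, Gria4, with Grik2 and Grik4 overlapping. Grik3 and Grik1 came last in every group and overlapped in KO controls. Levels of different genes are set here per length, and that order rests on the length used: the mutant tables gave Gria2 6110 to 6487 bases and Grik2 4785 to 4810 bases, while the GENCODE transcripts read for the sequences above have 10371 and 9427 bases.

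**Figure D1:**
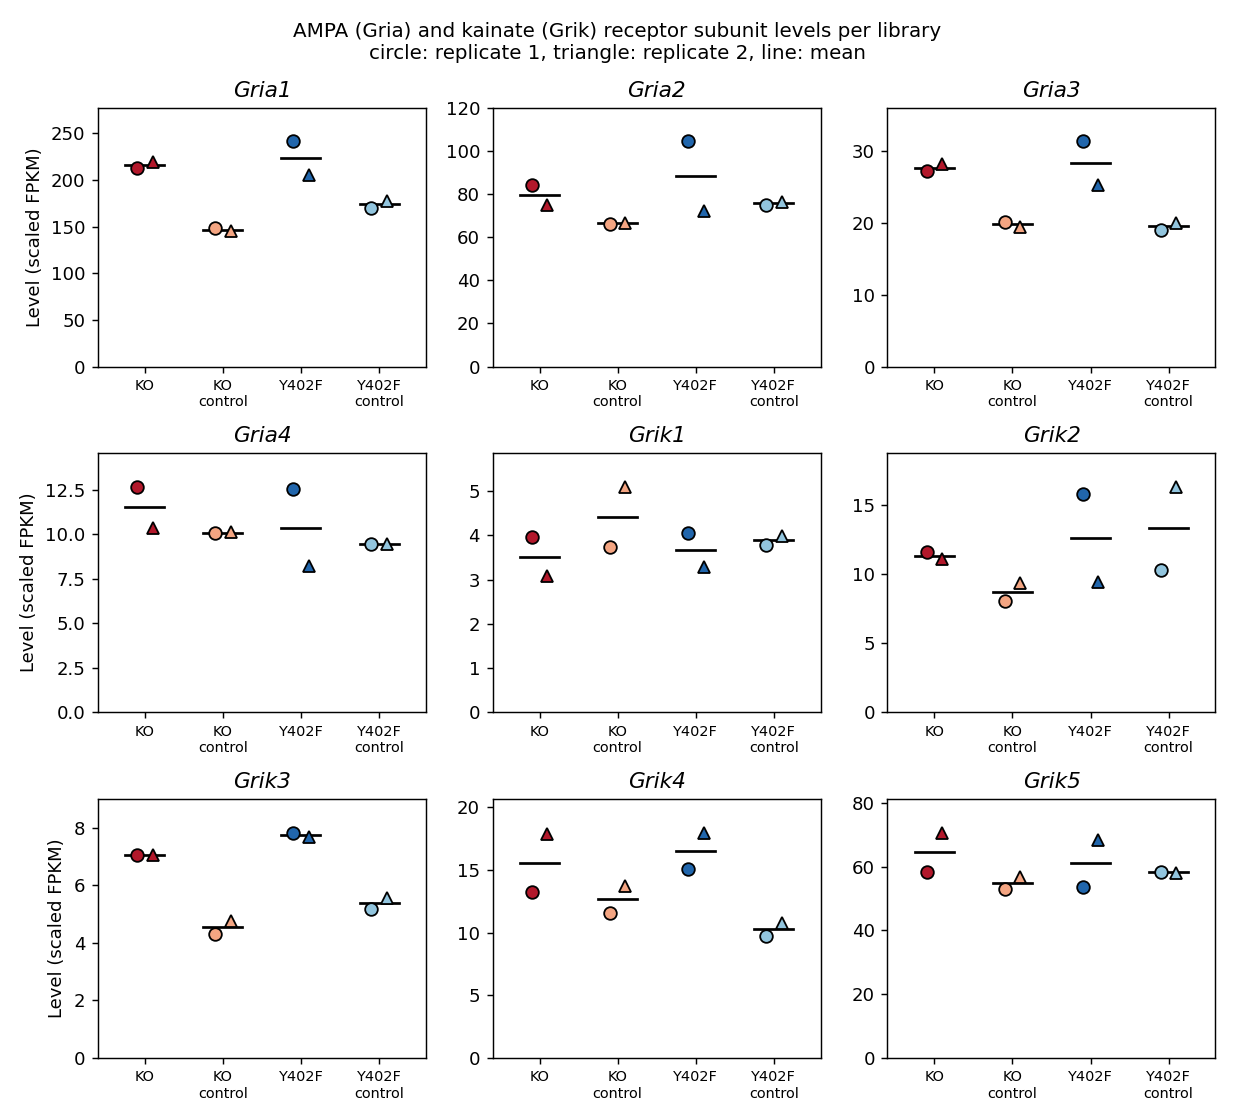
Level of each AMPA (Gria) and kainate (Grik) receptor subunit gene in every library, in scaled FPKM on an axis from 0; circles are replicate 1, triangles replicate 2 and lines the group means. Gria1, Gria3 and Grik3 lie higher in both mutant groups than in both control groups, while the Y402F circle stands well above the Y402F triangle for Gria2, Gria4 and Grik2.

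Within the AMPA family Gria1 made up 63.1 and 65.9% of the summed FPKM in KO and 61.9 and 66.0% in Y402F, against 60.7 and 60.1% in KO controls and 62.1 and 62.6% in Y402F controls. The share of Gria2 was 25.1 and 22.5% in KO and 26.8 and 23.2% in Y402F, against 27.0 and 27.7% in KO controls and 27.4 and 27.0% in Y402F controls. KO lay above its controls in the share of Gria1 and below them in that of Gria2, while in Y402F the share of Gria1 overlapped that of its controls and the share of Gria2 lay below it. Gria1 exceeded Gria2 by 2.52 and 2.93 times in KO and 2.31 and 2.84 times in Y402F, against 2.25 and 2.17 times in KO controls and 2.27 and 2.32 times in Y402F controls. Gria3 held 6.96 to 8.45% of the family and Gria4 2.64 to 4.19% over the 8 libraries. In Y402F the share of Gria3, at 8.03 and 8.13%, lay above the 6.96 and 7.06% of Y402F controls. The share of Gria4 was 3.76 and 3.11% in KO and 3.22 and 2.64% in Y402F, below the 4.10 and 4.19% of KO controls and the 3.46 and 3.34% of Y402F controls. With 2 libraries against 2, an exact permutation test cannot give a two-sided p below 0.333, so no test is given for shares.

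In the kainate family Grik5 held 61.9 and 64.4% of the summed FPKM in KO and 55.6 and 64.1% in Y402F, against 65.8 and 63.4% in KO controls and 66.8 and 61.3% in Y402F controls. These ranges overlapped between each mutant and its controls. Grik3, the remaining low-affinity subunit, held 7.51 and 6.42% in KO and 8.13 and 7.20% in Y402F, against 5.34 and 5.30% in KO controls and 5.94 and 5.87% in Y402F controls. Its share was higher in all 4 mutant libraries than in all 4 control libraries, and how often shares of other genes separate in this way was not computed. Grik4 held 14.1 and 16.3% in KO and 15.7 and 16.8% in Y402F, against 14.3 and 15.3% in KO controls and 11.1 and 11.4% in Y402F controls, so that its share lay apart from controls in the Y402F line only, a difference between lines that was not tested. The AMPA sum exceeded the kainate sum by 3.58 and 3.04 times in KO and 4.05 and 2.91 times in Y402F, against 3.03 and 2.69 times in KO controls and 3.13 and 2.99 times in Y402F controls.

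**Figure D2:**
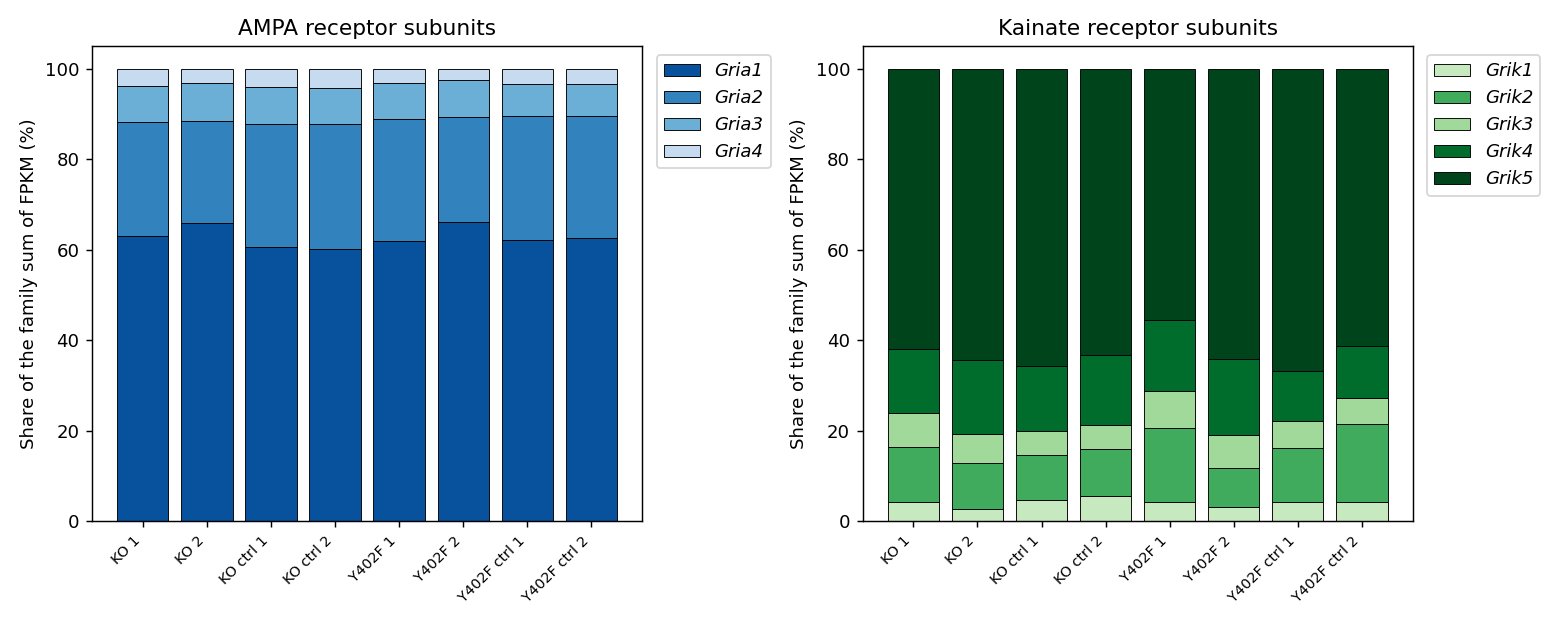
Share of each subunit in the summed FPKM of its family, in percent, for each of the 8 libraries, AMPA receptor genes in the left panel and kainate receptor genes in the right panel. Gria1 fills 60.1 to 66.0% of every AMPA bar and Grik5 55.6 to 66.8% of every kainate bar.

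KO was set against Y402F in tables made the same way. By design both lack the autophosphorylation site and KO is to lack the whole Pyk2 protein, but protein was not measured here. They are also separate lines, so line and mutation cannot be told apart in this comparison. None of the 9 subunit genes was called at an adjusted p under 0.05 by the quasi-likelihood test of edgeR, which called 2 of 13473 genes (0.0148%), Ptk2b and the activity gene Npas4. Over all genes 261 had an unadjusted p under 0.05, none of them a subunit gene, and DESeq2 and limma also called none of the 9. The median log2 difference of the 9 was -0.06, beside -0.00458 for all genes tested. The libraries of KO and Y402F separated for 1 of the 9, against 25.6% of all genes: Grik3 was at 7.07 and 7.05 scaled FPKM in KO and at 7.83 and 7.69 in Y402F, a log2 difference of -0.14 (SE 0.15, edgeR adjusted p = 0.999).

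The intervals of these differences were narrowest for Gria1 and widest for Grik1. Gria1 was counted at 6675 and 7079 reads in KO and at 7662 and 6750 in Y402F, and its log2 difference was -0.06 with a 95% interval from -0.29 to 0.17. For Gria2, counted at 2938 and 2597 in KO and at 3550 and 2697 in Y402F, the difference was -0.17 with an interval from -0.48 to 0.14. Grik1, the subunit with the fewest reads, had expected counts of 79 and 62 in KO and 80 and 68 in Y402F, and a difference of -0.06 with an interval from -0.58 to 0.46. The interval of Grik2, from -0.56 to 0.26, was also wide, and its Y402F libraries differed by -0.69 on the log2 scale (replicate 2 minus replicate 1). Differences inside these intervals could not be resolved with 2 libraries a group. The other 5 differences lay between -0.14 and 0.12.

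KO libraries held more transcript of the AMPA subunits Gria1 and Gria3 and of the kainate subunit Grik3 than their controls, with fold changes of 1.47, 1.40 and 1.56 between group means. These 3 of the 9 genes were called in the limma test on log2(scaled FPKM + 1), all higher, where 37.6% of 12941 genes were called (16.7% higher and 20.9% lower). Among the 9, as among all genes, most were not called. The median log2 difference was 0.27 for the 9 genes and 0.00131 for all genes tested. Both KO libraries stood above both KO controls for 7 of the 9 genes, against 35.7% of all genes that separated upward and 71.0% that separated in either direction.

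Gria1, whose product GluA1 is the main partner of GluA2 in pyramidal cells and is needed for much of hippocampal long-term potentiation, was at 213 and 219.8 scaled FPKM in KO, against 149 and 145 in KO controls. On the log2 scale it was 0.55 higher (SE 0.09, limma adjusted p = 0.00222). It stayed called in each of 8 alternative settings and without any of the 4 libraries, with differences between 0.41 and 0.85. Gria3, the X-linked subunit that pairs with GluA2, was at 27.2 and 28.2 in KO and at 20.1 and 19.4 in KO controls. Its difference of 0.47 (SE 0.13, limma adjusted p = 0.0212) lost its call when any 1 of the 4 libraries was left out (adjusted p from 0.0630 to 0.0919) and without scaling (0.0733). Grik3 was at 7.07 and 7.05 in KO and at 4.32 and 4.76 in KO controls, a difference of 0.54 (SE 0.15, limma adjusted p = 0.0199). It was not called without KO replicate 1 (adjusted p = 0.0791), KO replicate 2 (0.0729) or KO control replicate 1 (0.0938), or without scaling (0.0527).

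The other 6 subunit genes did not pass in KO. Gria2 was at 84.5 and 75.0 scaled FPKM in KO and at 66.2 and 66.9 in KO controls, which is 0.25 higher on the log2 scale (SE 0.16, limma adjusted p = 0.236). Its libraries did not overlap, and it was called with quantile normalization (0.51, adjusted p = 0.0442) and with a term for the sex pattern (0.43, adjusted p = 0.0216), but in none of the other 6 settings. Gria4, the subunit typical of interneurons and early development, was at 12.7 and 10.4 in KO against 10.05 and 10.1 in KO controls (0.17, limma adjusted p = 0.528). Grik2, the main partner of GluK4 and GluK5 at mossy fiber synapses, was at 11.6 and 11.05 in KO against 8.01 and 9.33 in KO controls (0.35, limma adjusted p = 0.323). Grik5 was at 58.3 and 70.8 in KO against 53.2 and 56.9 in KO controls (0.22, limma adjusted p = 0.245), and was called only with quantile normalization (0.46, adjusted p = 0.0195) among the 8 settings. The libraries overlapped for Grik4, at 13.3 and 17.9 in KO against 11.6 and 13.7 in KO controls (0.27, limma adjusted p = 0.263), and for Grik1, at 3.96 and 3.08 in KO against 3.73 and 5.09 in KO controls. Grik1 had the only negative difference, -0.26 (limma adjusted p = 0.356).

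In the Y402F line Gria1, Gria3, Grik3 and the high-affinity kainate subunit Grik4 were higher than in controls, with fold changes of 1.28, 1.45, 1.44 and 1.61 between group means. These 4 of the 9 genes were called, all higher, where 32.3% of the 12941 genes were called (13.0% higher and 19.3% lower). The median log2 difference of the 9 was 0.20, beside 0.00166 for all genes tested. The same 4 genes were those whose libraries did not overlap, against 34.6% of all genes that separated upward and 68.6% in either direction.

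Gria1 was at 242 and 205 scaled FPKM in Y402F and at 170.1 and 178 in Y402F controls, higher by 0.36 on the log2 scale (SE 0.09, limma adjusted p = 0.0193). Without Y402F replicate 1 the difference was 0.24 (adjusted p = 0.0757), and it was also not called without Y402F control replicate 1 (0.103), Y402F control replicate 2 (0.0630), the intensity trend (0.0713) or scaling (0.21, 0.124). Gria3 was at 31.3 and 25.3 in Y402F and at 19.1 and 20.0 in Y402F controls, a difference of 0.50 (SE 0.13, limma adjusted p = 0.0174). It was not called without Y402F replicate 1 (adjusted p = 0.0894), Y402F control replicate 1 (0.0792), Y402F control replicate 2 (0.0532) or scaling (0.0612). Both Y402F libraries stood above every control library of either line for Gria1 and for Gria3, as they did for Grik3 and Grik4. The share of all genes that do so was not computed.

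Grik3 was at 7.83 and 7.69 scaled FPKM in Y402F and at 5.19 and 5.56 in Y402F controls, and its log2 difference was 0.46 (SE 0.15, limma adjusted p = 0.0424). The call was lost when any 1 of the 4 libraries was left out (adjusted p from 0.0989 to 0.154) and in 5 of the 8 settings. Grik4, which joins GluK2 at mossy fiber synapses, was at 15.1 and 17.99 in Y402F and at 9.72 and 10.8 in Y402F controls. The mutant tables gave Grik4 3488 bases, while the GENCODE transcript read for the sequences above has 5887 bases. The length behind its control FPKM is not given, and the part of length in its difference was not tested. The difference of Grik4 was 0.64 (SE 0.18, limma adjusted p = 0.0248), the largest of the 9 in this line. It was not called when any 1 of the 4 libraries was left out (adjusted p from 0.0504 to 0.137) or without scaling (0.0605), while its direction held in all of them.

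For the other 5 genes the Y402F libraries overlapped their controls. Gria2 was at 105 and 72.3 scaled FPKM in Y402F against 75.1 and 76.6 in Y402F controls, so that replicate 1 lay above and replicate 2 below both controls. Its log2 difference was 0.20 (SE 0.16, limma adjusted p = 0.369), with -0.067 (adjusted p = 0.688) without Y402F replicate 1 and 0.46 (adjusted p = 0.0259) without Y402F replicate 2. Gria4 was at 12.6 and 8.20 in Y402F against 9.46 and 9.47 in Y402F controls, and Grik2 at 15.7 and 9.39 against 10.3 and 16.3. Both thus had a Y402F library on each side of at least 1 control. The 2 Y402F controls differed in Grik2 beyond the confidence bounds of the control tables, which ran from 9.05 to 12.6 FPKM in replicate 1 and from 13.9 to 20.3 FPKM in replicate 2. Grik5 was at 53.6 and 68.5 in Y402F against 58.4 and 58.1 in Y402F controls, and Grik1 at 4.05 and 3.27 against 3.79 and 3.99. The differences of Gria4, Grik1, Grik2 and Grik5 were 0.09, -0.07, -0.08 and 0.06.

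**Figure D3:**
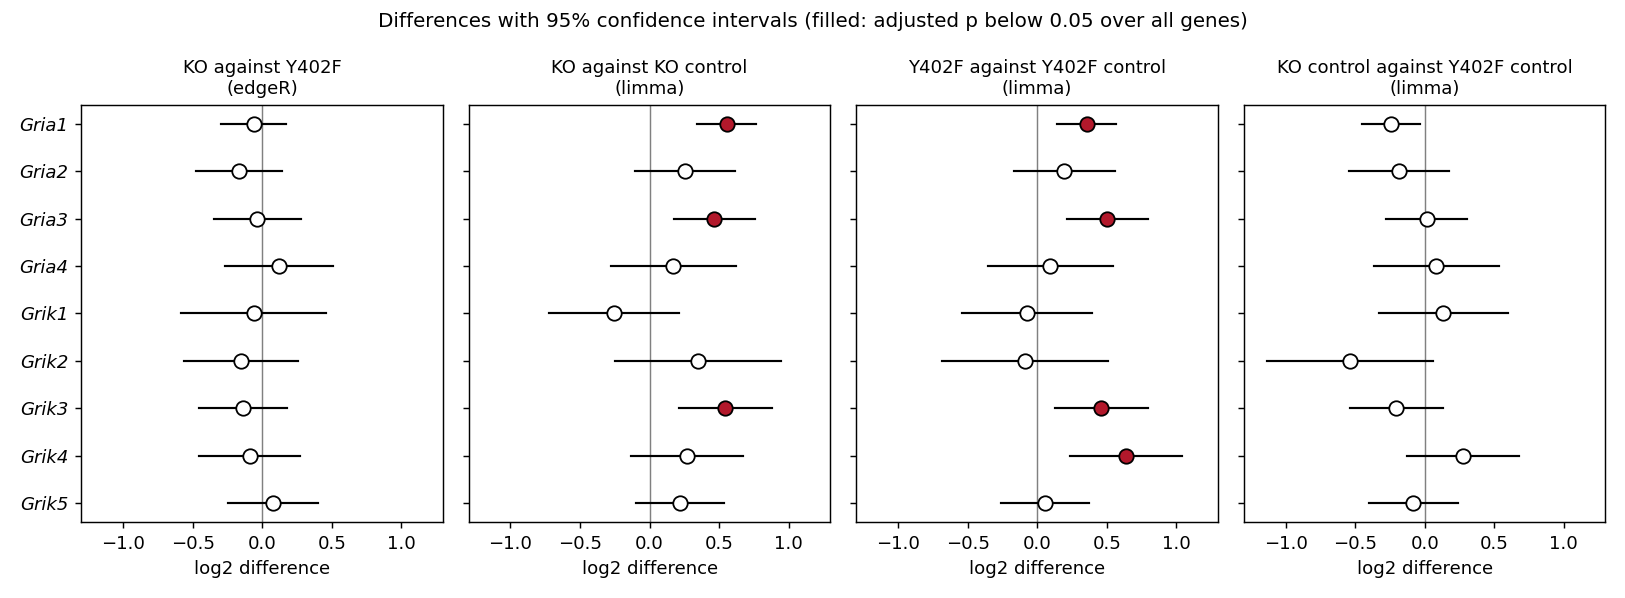
Log2 difference of each subunit gene, with its 95% confidence interval, in 4 comparisons; filled points have an adjusted p under 0.05 over all genes tested. Gria1, Gria3 and Grik3 are filled and positive in both mutants against their controls and Grik4 in Y402F against its controls, while no point is filled for KO against Y402F or KO control against Y402F control.

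The KO and Y402F lines do not share control libraries, so a difference between their effects also carries any difference between the control sets. The KO controls had the female pattern and the Y402F controls the male pattern. Of the control sets, only the Y402F controls were high in choroid plexus markers. None of the 9 genes was called when the Y402F effect was taken off the KO effect, where limma called 4 of 12941 genes (0.0309%) and 1681 had an unadjusted p under 0.05. For Gria1 the KO effect exceeded the Y402F effect by 0.20 on the log2 scale (SE 0.13, limma adjusted p = 0.553) and for Grik2 by 0.44 (SE 0.37, adjusted p = 0.655). For Grik4 it was smaller, by a difference of -0.37 (SE 0.25, limma adjusted p = 0.565). The call of Grik4 in the Y402F line alone is thus not shown to set the lines apart.

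The 2 sets of wild-type controls show how far subunit levels lay apart without a Pyk2 mutation. Gria1 was at 149 and 145 scaled FPKM in KO controls and at 170.1 and 178 in Y402F controls, which is -0.24 on the log2 scale (SE 0.09, limma adjusted p = 0.138). Grik2 had a difference of -0.54 (SE 0.26, limma adjusted p = 0.227) and Grik4 of 0.28 (SE 0.18, adjusted p = 0.348). None of the 9 was called, where 7.96% of genes were called and 3502 genes had an unadjusted p under 0.05. The libraries of the controls separated for 7 of the 9 genes, 5 of them lower in KO controls, against 59.0% of all genes. The wild-type sets also differed in their sex pattern, so line and sex pattern cannot be told apart in them.

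Within the mutants the sex pattern and the replicate number were the same split, and several subunits lay on the same side of it in both lines without passing the test. Replicate 2, the library with the male pattern, had less Gria2, Gria4, Grik1, Grik2 and Grik3 than replicate 1 in KO and in Y402F. It had more Grik4 and Grik5 than replicate 1 in both. Gria1 and Gria3 lay on opposite sides in KO and Y402F. The share of all genes lying on the same side in both was not computed. On the log2 scale the male-pattern library minus the female-pattern library gave -0.17 in KO and -0.53 in Y402F for Gria2, and -0.26 in KO and -0.56 in Y402F for Gria4. It gave 0.27 in KO and 0.35 in Y402F for Grik5, and 0.40 in KO and 0.24 in Y402F for Grik4. For Grik1 it gave -0.28 in KO and -0.24 in Y402F, for Grik2 -0.06 and -0.69, and for Grik3 -0.0048 and -0.024. For Grik4 replicate 2 was also the higher one in KO controls (0.23) and in Y402F controls (0.14), where the sex pattern does not differ. A term for the sex pattern in the edgeR fit of the 4 mutant libraries, added after seeing the data and leaving 1 residual degree of freedom, called none of the 9, where it called 0.289% of 13473 genes and 2438 had an unadjusted p under 0.05. The male minus female difference was -0.34 for Gria2 (edgeR adjusted p = 0.0727), -0.39 for Gria4 (0.136), 0.31 for Grik5 (0.101) and 0.33 for Grik4 (0.170). The largest of the 9 was that of Grik2, at -0.41 (edgeR adjusted p = 0.188). Grik1 had -0.34 (0.378) and Grik3 -0.025 (0.929). Gria3, which lies on the X chromosome, had -0.14 and Gria1 -0.10. Along the same split the nuclear noncoding RNAs Malat1 (-0.80, edgeR adjusted p = 0.0278) and Meg3 (-0.72, 0.0452) and the neuron marker Snap25 (-0.29, 0.0436) were called lower and the myelin gene Mbp (0.26, 0.0452) higher, and their part in the values of the subunits was not tested.

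By this pattern, and with the lower Xist of the KO controls given above, KO replicate 1 can be set against both KO controls and Y402F replicate 2 against both Y402F controls, each with the spread taken from the other groups. Gria1 was then higher by 0.53 on the log2 scale in KO, and by 0.24 in Y402F (limma adjusted p = 0.0190 and 0.0757). The difference of Gria3 was 0.44 in KO and 0.36 in Y402F (limma adjusted p = 0.0919 and 0.0894), and that of Grik3 was 0.54 in KO and 0.45 in Y402F (0.0729 and 0.122). Grik4 gave 0.76 in Y402F (limma adjusted p = 0.0504).

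Other measures moved beside the subunits in the same libraries. Of 5 general neuron markers, 3 were called higher and 1 lower in KO against KO controls, and 1 higher and 1 lower in Y402F against Y402F controls, where 16.7% of all genes were called higher and 20.9% lower in KO, and 13.0% higher and 19.3% lower in Y402F. Of 7 dentate granule markers, 6 were called higher in KO and 1 in Y402F. Of 5 activity-dependent genes, 5 were called higher in KO (median log2 difference 1.86) and none in Y402F. The KO controls were themselves low in both lists. Against Y402F controls, 3 of the 7 dentate markers and 3 of the 5 activity genes were called lower. The median log2 differences there were -0.60 and -0.93, where 7.96% of all genes were called in either direction. The oligodendrocyte markers summed to 2802 and 3358 scaled FPKM in KO and 2538 and 2850 in Y402F, against 4355 and 4477 in KO controls and 2803 and 2830 in Y402F controls. Most of that sum is Mbp; of the 6 markers none was called higher and 3 lower in KO, and 2 higher and 2 lower in Y402F. Mobp, another myelin gene, was at 112 and 104 scaled FPKM in KO and 92.8 and 86.5 in Y402F, against 284 and 289.6 in KO controls and 262 and 261 in Y402F controls. Malat1 and Meg3 together summed to 73.4 and 58.5 scaled FPKM in KO and 83.9 and 42.8 in Y402F, against 26.2 and 31.9 in KO controls and 131 and 124 in Y402F controls. Of this pair Meg3 was called higher in KO (1.29, limma adjusted p = 0.00638), Malat1 lower in Y402F (-1.82, 0.00216), and both lower in KO controls than in Y402F controls. The part of these in the differences of the subunit genes was not tested, and in bulk tissue fewer cells of a type and less RNA per cell cannot be told apart.

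Several partners of these receptors differed from controls in both lines, in comparisons where genotype and processing cannot be told apart. Of 32 listed genes for auxiliary subunits, scaffolds, secreted organizers and assembly or editing factors, 9 were higher and 3 lower in KO against KO controls, and 10 were higher and 4 lower in Y402F against Y402F controls. Called in either direction, 12 of 32 in KO is close to the 37.6% of all genes. In Y402F 14 of 32 lies above the 32.3% of all genes, an excess that was not tested. By direction the partners had more calls higher and fewer lower than all genes. Of all genes 16.7% were called higher and 20.9% lower in KO, and 13.0% higher and 19.3% lower in Y402F. The partner list was drawn up with earlier results of these data known, so its counts are descriptions only. Without scaling the counts were 5 higher and 3 lower in KO and 4 higher and 4 lower in Y402F, and with quantile normalization 18 higher and 3 lower in KO and 15 higher and 4 lower in Y402F. In KO against Y402F edgeR called none of the 32, and the smallest p-values belonged to Nptx1 (-0.28), C1ql2 (-0.31) and Cacng8 (0.30, each with an adjusted p of 0.999).

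The kainate receptor partners C1ql3 and Neto1 had the largest called differences of the list in each line, in opposite directions. C1ql3, a secreted protein that gathers kainate receptors at mouse mossy fiber synapses, was at 58.3 and 53.2 scaled FPKM in KO and 59.6 and 55.0 in Y402F, against 19.3 and 18.2 in KO controls and 29.0 and 28.5 in Y402F controls. Its log2 difference was 1.52 in KO and 0.97 in Y402F (SE 0.10 in both, limma adjusted p = 1.95e-05 and 2.33e-04). Its relative C1ql2, which also marks dentate granule cells, had 0.38 in KO and 0.47 in Y402F (limma adjusted p = 0.0270 and 0.0134), and lost its call without scaling in both lines. Neto1, the auxiliary subunit that slows kainate receptor currents, was at 36.4 and 31.5 in KO and 42.4 and 35.4 in Y402F, against 67.6 and 59.0 in KO controls and 88.3 and 95.4 in Y402F controls. Its log2 difference was -0.88 in KO and -1.22 in Y402F (SE 0.13 in both, limma adjusted p = 0.00117 and 2.14e-04). All 4 mutant libraries lay on the same side of all 4 control libraries for C1ql3 and for Neto1. The same held for other partners, among them Cacng3, Dlg4, Nptxr, Adarb1, Nsf, Abhd6 and Porcn. The share of all genes that separate in this way was not computed. Against their own controls alone, 71.0% of all genes separated in KO and 68.6% in Y402F.

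On the AMPA receptor side, Cacng3, a TARP auxiliary subunit that carries AMPA receptors to the synapse, was at 46.2 and 45.6 scaled FPKM in KO and 45.6 and 47.0 in Y402F, against 20.7 and 31.0 in KO controls and 25.9 and 23.2 in Y402F controls. It was higher by 0.83 in KO and 0.89 in Y402F on the log2 scale (limma adjusted p = 0.00594 and 0.00488). Cacng8, the TARP most typical of hippocampus, was called in KO (0.45, limma adjusted p = 0.0242) and not in Y402F, and lost the call without KO replicate 2 or KO control replicate 1 and in 4 of the 8 settings. Dlg4, which encodes the scaffold PSD-95 that anchors these complexes, was at 382 and 415 in KO and 370.3 and 404 in Y402F, against 654 and 628 in KO controls and 547 and 521 in Y402F controls. Dlg4 was lower than in controls by 0.69 in KO and by 0.46 in Y402F on the log2 scale (limma adjusted p = 3.06e-04 and 0.00266). Nptxr, a membrane-bound pentraxin that clusters AMPA receptors, was lower by 0.69 in KO and by 0.63 in Y402F (limma adjusted p = 0.00359 and 0.00664). The calls of C1ql3, Neto1, Cacng3, Dlg4 and Nptxr held in both lines in all 8 settings and whichever library was left out.

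Adarb1, the gene of the enzyme that edits the codon of Gria2, Grik1 and Grik2 printed above, was at 38.1 and 37.1 scaled FPKM in KO and 34.5 and 31.6 in Y402F, against 23.5 and 23.9 in KO controls and 25.01 and 23.6 in Y402F controls. Its log2 difference was 0.64 in KO and 0.43 in Y402F (SE 0.10 in both, limma adjusted p = 0.00191 and 0.0148). The call in Y402F was lost without Y402F replicate 1, without Y402F control replicate 2 and without scaling (adjusted p = 0.0710), while that in KO held throughout. Nsf, an ATPase that binds GluA2, was higher by 0.35 in KO and 0.51 in Y402F, and the secreted pentraxin Nptx1 by 0.40 and 0.46. Each of these calls held in Y402F throughout, but in KO that of Nsf was lost without KO replicate 2 or KO control replicate 2, without the trend and without scaling (0.21, adjusted p = 0.0674). In KO that of Nptx1 was lost without KO replicate 2 or either KO control and without scaling (0.26, adjusted p = 0.0602).

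The remaining called partners were Abhd6, which restrains AMPA receptor delivery (0.49 in KO and 0.43 in Y402F), Porcn (0.52 and 0.31), and, called in Y402F and not in KO, Dlg1 (-0.66), Nptx2 (0.47) and Cpt1c (0.36). Of these, Porcn in KO kept its call whichever library was left out, and each of the others, like C1ql2, lost it without at least 1 library. In KO controls against Y402F controls 3 of the 32 partners were called, beside 7.96% of all genes, C1ql3 (-0.59), Neto1 (-0.53) and the cornichon Cnih2 (0.61), each of which lost the call when any 1 of the 4 libraries was left out. No partner was called in the KO effect minus the Y402F effect, where C1ql3 came nearest (0.55, SE 0.15, limma adjusted p = 0.210), followed by Cnih2 (-0.42, 0.337) and Nrn1 (-0.26, 0.437).

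**Figure D4:**
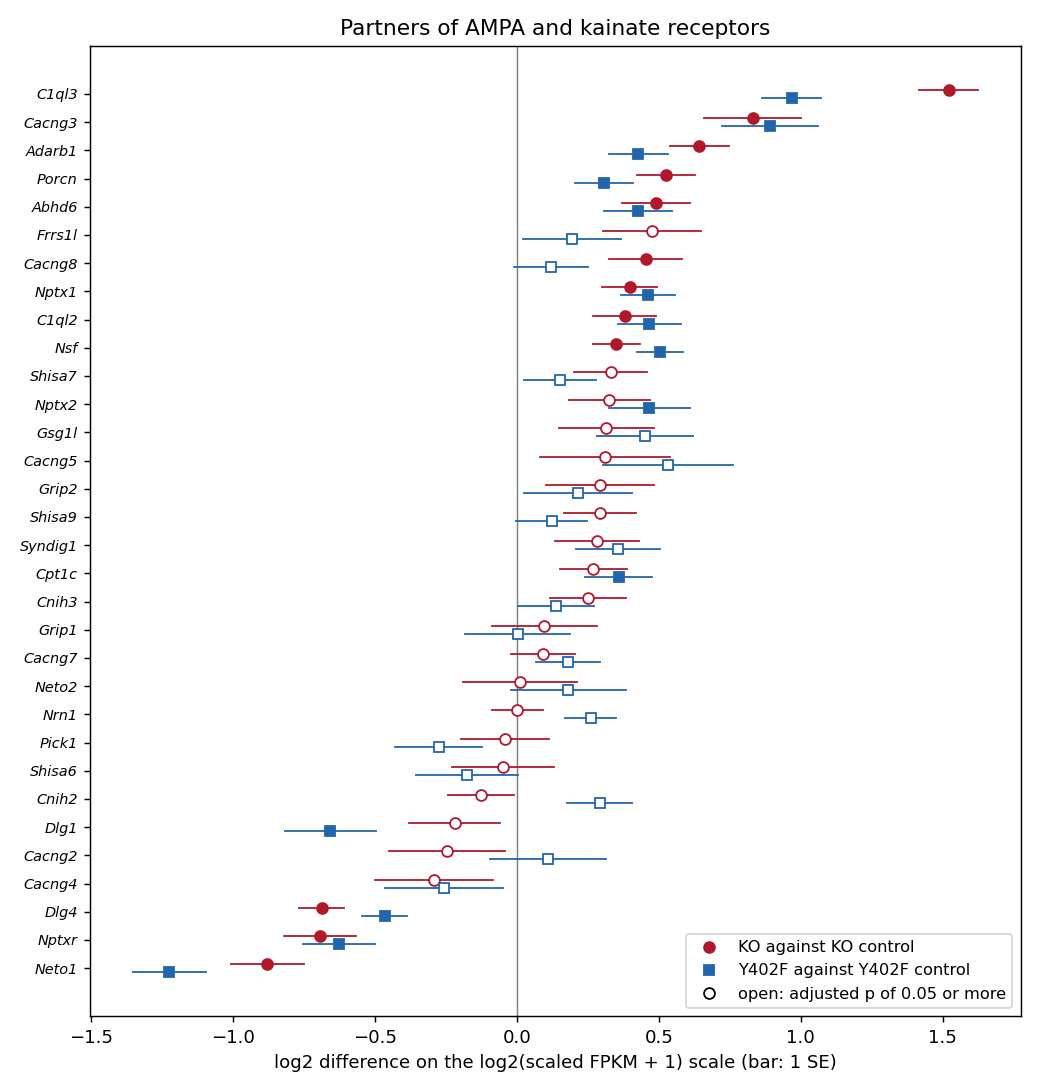
Log2 difference on the log2(scaled FPKM + 1) scale, with 1 SE, of the 32 partner genes in KO against KO control (circles) and Y402F against Y402F control (squares), ordered by the KO difference; filled symbols have an adjusted p under 0.05 over all genes tested. C1ql3 stands at the top at 1.52 in KO, and Dlg4, Nptxr and Neto1 are the 3 lowest in KO.

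The other ionotropic glutamate receptors, of the NMDA and delta classes, gave 1 call among 8 tested genes over all comparisons, where 37.6% of all genes were called in KO, 32.3% in Y402F and 7.96% between the control sets. Grid1, a delta receptor gene, was at 21.5 and 19.4 scaled FPKM in Y402F and at 30.0 and 24.9 in Y402F controls, -0.40 on the log2 scale (limma adjusted p = 0.0499), which 1 of 8 settings still called. Grin2b, the NMDA subunit gene with the smallest p in KO against KO controls, had -0.60 there (limma adjusted p = 0.107). Grin2d had 0.60 in KO against Y402F (edgeR adjusted p = 0.999).

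After the mean of the mutant and of the control libraries was taken off, the genes most like the mean of the 4 AMPA genes over the 8 libraries were Rgs7bp, Rab3c and Phf10 (Pearson r 0.994, 0.993 and 0.979), where 5% of 6557 genes exceeded 0.743. For the mean of the 5 kainate genes they were Hivep3, Tmem109 and Ctr9 (0.981, 0.951 and 0.933), where 5% exceeded 0.631. These are descriptions over libraries that share groups, sex patterns and table kinds. Rgs7bp stood furthest from the mean of the mutant libraries in Y402F, at 0.27 in replicate 1 and -0.26 in replicate 2 on the log2 scale.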

How the data were processed

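RNA-seq of 8 hippocampal libraries of mice was used. In the mutant tables the authors deposited an expected count, which is an estimated number of reads per gene, an FPKM value and a transcript length by Entrez identifier; in the control tables they deposited FPKM per Ensembl gene with confidence bounds. Bowtie 1, HISAT and mm9 are named for all libraries and Cufflinks for the controls, per the submitters' processing notes. Positions in the control tables nevertheless share a start or end with GENCODE M21 on GRCm38 for 99.8% of genes. What made the expected counts is not given here.

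Of 18022 genes in the mutant tables, 17596 were matched by symbol and 59 by Entrez identifier. FPKM was scaled by median-of-ratios factors from the 11428 genes that reach 1 FPKM in all libraries. Unscaled, the median gene differed from controls by -0.13 (KO) and -0.14 (Y402F) on the log2 scale. The matched genes held 98.5 to 98.6% of the FPKM in the mutant libraries. They held 48.1 and 47.0% in KO controls and 38.1 and 37.9% in Y402F controls. limma 3.58.1 with an intensity trend was fitted to log2(scaled FPKM + 1), which understates changes of low genes, over 12941 genes with a mean of 1 FPKM or more in all 8 libraries (4 residual degrees of freedom). For KO against Y402F the expected counts were rounded to whole numbers and tested with edgeR 4.0.16 by quasi-likelihood (13473 genes, 2 residual degrees of freedom), with DESeq2 1.42.0 as an alternative. Calls have a Benjamini-Hochberg adjusted p under 0.05 over all genes tested, and 95% intervals come from the fit. Expected counts were whole within 0.005 for 81.1 to 81.7% of genes.

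The members and lists were chosen with earlier results of these data known. The text names all 9 members, Ptk2b, the called genes of the partner and receptor lists or otherwise those with the smallest p, and the 3 genes most like each family mean. Npas4 and the genes inside receptor genes were named after their values were seen. Deviations of same-numbered libraries from their group means correlated at -0.0307 to 0.203, so the numbers were not taken to pair libraries. The fits were tested on simulated data. The software was R 4.3.3 and Python 3.11.15 (matplotlib 3.10.9, numpy 2.4.6, pandas 2.3.3).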

Additional observations from a re-analysis of the deposited data

How the results depend on the processing

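In KO against KO controls 3 subunit genes were called; the count was 1 without scaling, 5 with quantile normalization and 1 to 2 without a single library, and 3 or 4 in the other 6 settings. In Y402F against Y402F controls 4 were called; the count was 0 without scaling, 0 to 3 without a single library, and 3 or 4 in the other 7 settings. Where a library was left out, the lone remaining library of its group was assumed to vary like the others. In KO against Y402F, KO controls against Y402F controls and the difference of effects none was called in any alternative run. With the replicate number as a block the counts were 3 in KO and 3 in Y402F; Grik3 in Y402F lost its call (adjusted p = 0.0515), and no other member changed.

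Over all genes the calls in KO against Y402F numbered 2, with 1 in DESeq2, 1 without the filter, 5 in limma, 4 with the block and 18 to 44 without a single library. KO controls against Y402F controls gave 1030, with 165 without the trend, 513 without the filter, 550 with 4 libraries and 170 to 269 without a single library. The difference of effects gave 4, with 7 without the filter, 135 with a sex term and 6 to 16 without a single library. KO against KO controls gave 4872 and 3099 without KO replicate 1. Of the 4872 calls 2165 were higher, against 1396 of 4715 without scaling and 2917 of 5122 with quantile normalization; in Y402F these were 1688 of 4185, 983 of 4108 and 2721 of 4870.

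Some differences that were not called changed sign. In Y402F against Y402F controls Gria4 gave -0.042 and Grik5 -0.092 without scaling, Grik2 0.031 with quantile normalization and Gria4 -0.11 with a sex term. With a sex term KO controls against Y402F controls gave -0.11 for Gria3, -0.33 for Gria4, -0.13 for Grik1, 0.23 for Grik5 and 0.17 for Ptk2b, and the difference of effects gave 0.086 for Gria3, 0.079 for Grik1 and -0.15 for Grik5. Without a single library, KO against Y402F ran from -0.16 to 0.062 for Gria1, -0.36 to 0.074 for Gria2, -0.16 to 0.11 for Gria3, -0.080 to 0.37 for Gria4, -0.27 to 0.13 for Grik1, -0.46 to 0.27 for Grik2, -0.31 to 0.10 for Grik4 and -0.087 to 0.28 for Grik5. Y402F against Y402F controls ran from -0.067 to 0.46 for Gria2, -0.19 to 0.37 for Gria4, -0.19 to 0.049 for Grik1, -0.43 to 0.26 for Grik2 and -0.12 to 0.25 for Grik5. KO controls against Y402F controls ran from -0.019 to 0.050 for Gria3 and -0.048 to 0.32 for Grik1. The difference of effects ran from -0.21 to 0.32 for Gria2, -0.19 to 0.11 for Gria3, -0.20 to 0.36 for Gria4, -0.37 to 2.9e-04 for Grik1 and -0.0096 to 0.34 for Grik5. The cause was not tested.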

Other observations

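Gm22413, an annotated miRNA gene of the control tables inside Gria3 (chrX:41654234-41654318 on GRCm38), was listed at 250.4 FPKM in KO control replicate 2 and at 0 in the other 3 control libraries. It was not among the matched genes, and Gria3 itself had 20.1 and 19.4 scaled FPKM in KO controls. Mir692-2, inside Grik3, was listed at 194 and 252 FPKM in KO controls and at 96.9 and 77.4 FPKM in Y402F controls.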
